A study of Mus musculus with 4 samples.

Results

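Genes of neuropeptides and of the secretory granules that store them were measured in mouse sciatic nerve, in mutants that lack the kinase LKB1 in Schwann cells and in their controls. The 10 genes were Nmu, Chga, Chgb, Scg2, Scg3, Vgf, Scg5, Pcsk1n, Pcsk2 and Cpe, and their probes on the array were found by platform gene symbol. Of the 10 genes, 9 had a probe, with 13 probes among the 45281 of the array, and Pcsk2 was not analysed here. The set was put together with the contrast of the 2 genotypes known, above all the high Nmu and the low Scg5 signal in mutant nerve, so for these genes that contrast is given as a description, without a test. The mutant group, LKB1-SCKO, had the floxed Stk11 gene, which encodes LKB1, deleted in Schwann cells, whereas controls carried floxed LKB1 alleles and no Cre recombinase. All mice were at postnatal day 60, a time before axons degenerate in this mutant, and of a mixed FVB/C57BL/6 background. Each genotype was represented by 2 pools, and each pool held the RNA of 3 nerves from 3 different mice, 6 mice per genotype in all. The promoter that drives Cre is not given in the sources used here, so whether it acts in nerve cells other than Schwann cells is unknown here. In such whole tissue, fewer cells of a type and less RNA per cell cannot be told apart.

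Neuropeptides and peptide hormones are made as larger precursors that are packed, together with acidic proteins called granins, into dense-core secretory granules at the trans-Golgi network. Inside the maturing granule, prohormone convertases cut the precursor after pairs of basic residues and carboxypeptidase E trims the exposed basic ends, so that the active peptide is released when calcium triggers exocytosis. Neuroendocrine cells and neurons are the classical users of this pathway. A peripheral nerve contains the axons of such neurons but not their cell bodies, beside Schwann cells, fibroblasts, vessels and immune cells.

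The array was an Illumina bead chip that gives a linear signal intensity and a detection p-value for each probe, the latter measured against negative control beads. A probe was called detected on an array where that p-value was under 0.05, which held for 43.3% to 45.6% of the probes. Over the 10858 genes tested, the correlation of log2 values was 0.990 for the pair of control pools, 0.986 for the pair of LKB1-SCKO pools, and 0.966 to 0.977 for pairs of unlike genotype. The targeted gene, Stk11, was lower in both LKB1-SCKO pools (log2 intensity 8.93 and 9.01) than in both control pools (9.70 and 9.83), with an adjusted p of 0.0448 in limma that rose above 0.05 when any 1 pool was left out. The position of its probe relative to the deleted exons is unknown here.

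Nmu, the precursor gene of neuromedin U, a peptide that contracts smooth muscle, curbs feeding and activates innate lymphoid cells, had signal in LKB1-SCKO nerve alone. Its unprocessed signal was 149 and 162 in control nerve and reached 978 and 814 in LKB1-SCKO nerve. The detection p-value was 0.197 and 0.0566 in controls and 0 in both LKB1-SCKO pools, so the control signals were not distinguishable from those of the negative controls. After background correction and normalization the log2 intensities were 4.90 and 5.15 in controls and 9.83 and 9.40 in LKB1-SCKO, and the genotypes did not overlap. Because no control pool detected Nmu, its ratio is a lower bound, and LKB1-SCKO was at least 21.5-fold higher than the lowest signals that count as detected on the control arrays. The bound holds for this processing. The array has 1 Nmu probe, so no other probe of the gene could be set beside it. The receptors of the peptide, Nmur1 and Nmur2, each had 1 probe, and neither was detected in any pool, with signals of 128 to 150 for Nmur1 and 128 to 156 for Nmur2.

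The granins are the acidic bulk proteins of dense-core granules, which condense in the presence of calcium and are cut into peptides of their own. Of the genes Chga, Chgb, Scg2, Scg3 and Vgf, only Scg3 had signal above background on all 4 arrays. Scg5 and Pcsk1n, described further below, were also detected on all 4 arrays. Scg3 encodes secretogranin III, which binds chromogranin A and the granule membrane. Its unprocessed signal was 341 and 342 in control pools and 220 and 207 in LKB1-SCKO pools. On the normalized log2 scale the controls stood at 7.73 and 7.68 and LKB1-SCKO at 6.63 and 6.13. Both mutant pools thus lay below both control pools, and the mean difference was -1.33 (SE 0.197), a level 2.51-fold lower in LKB1-SCKO. The mutant pools differed more from each other (SD 0.351, n = 2) than the control pools did (SD 0.0352, n = 2).

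The genes Chga, Chgb, Scg2 and Vgf were at or near the background. Chga, the gene of chromogranin A and the usual marker of neuroendocrine cells, had 3 probes with signals of 139 to 164, and 1 of its 12 measurements, in control 2, had a detection p-value under 0.05 (0.0385). The single probe of Chgb, chromogranin B, read 161 and 156 in controls and 154 and 166 in LKB1-SCKO, and it counted as detected in control 1 alone (detection p-value 0.0481). The 2 probes each of Scg2, secretogranin II, and of Vgf, a neurotrophin-induced granin, were detected on no array, with signals of 123 to 167 and 129 to 165. No difference between genotypes is given for these 4 genes, since no genotype had both of its pools detected. For comparison, 43.3% of the 34885 probes with 1 gene symbol were detected on none of the 4 arrays. The signals of all member probes are plotted by pool.

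**Figure D1:**
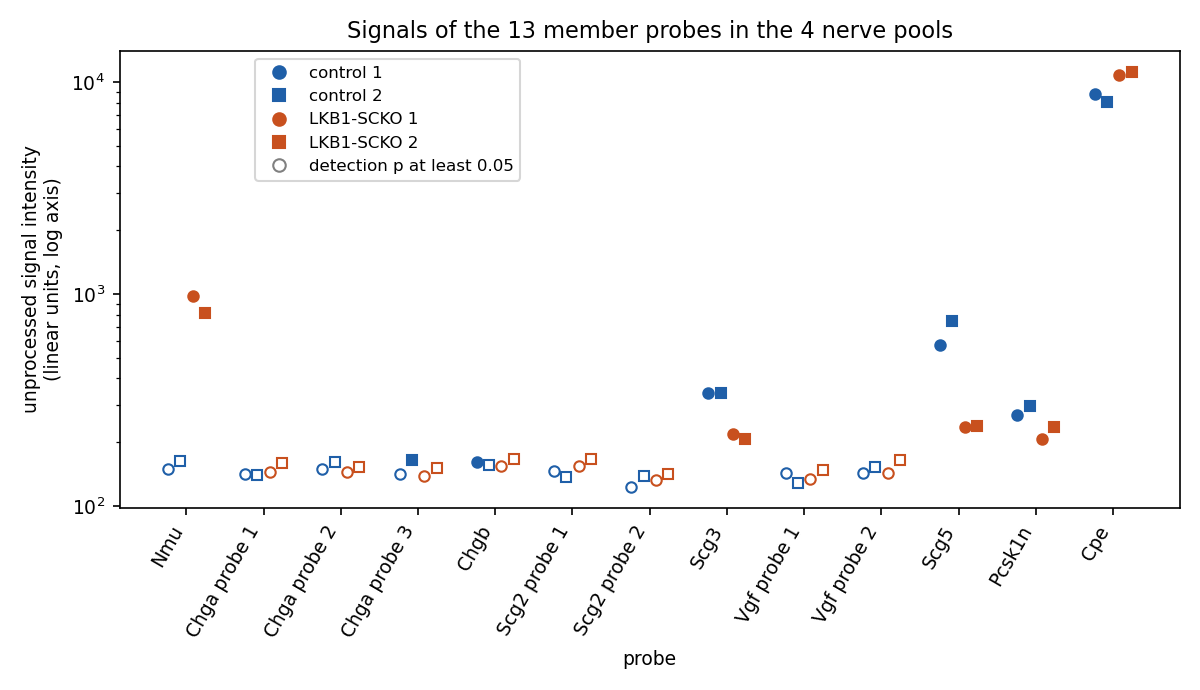
Unprocessed signal intensity (log axis) of each of the 13 member probes in the 4 pools, where circles and squares are pools 1 and 2 of a genotype, blue is control, orange is LKB1-SCKO, and open symbols have a detection p-value of at least 0.05. Nmu was detected in LKB1-SCKO pools alone, Scg3, Scg5 and Pcsk1n were lower in both LKB1-SCKO pools, Cpe was bright in all 4 pools, and the Chga, Chgb, Scg2 and Vgf probes read between 123 and 167.

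Scg5, which encodes a small granule protein that acts as a chaperone of the convertase PCSK2 and blocks it until the granule matures, had the most negative difference among the 5 members above background. Its unprocessed signal was 576 and 745 in control pools against 235 and 238 in LKB1-SCKO pools. The normalized log2 values were 8.79 and 9.21 in controls and 6.86 and 6.65 in LKB1-SCKO, all detected, with no overlap. The mean difference was -2.24 (SE 0.190), or 4.73-fold lower in LKB1-SCKO. On the unprocessed scale, where the background of the array is still in both signals, the same comparison was 2.79-fold. The gene of its partner enzyme, Pcsk2, was not analysed here, so chaperone and client cannot be set side by side.

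Pcsk1n, the gene of proSAAS, a granule protein that inhibits the convertase PCSK1, was also lower in the mutant, by less. Its signal was 269 and 297 in control pools and 207 and 235 in LKB1-SCKO pools, close to the background yet detected on all 4 arrays with a detection p-value of 0. In log2 units the controls stood at 7.14 and 7.33 and LKB1-SCKO at 6.41 and 6.60. The pools did not overlap, and the difference was -0.73 (SE 0.150), a level 1.66-fold lower in LKB1-SCKO. Pcsk1 itself had no probe above background in both pools of a genotype.

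Cpe, the gene of carboxypeptidase E, was the member with a strong signal in every pool. It read 8798 and 8075 in control pools and 10793 and 11217 in LKB1-SCKO pools, which is 13.04 and 12.90 against 13.46 and 13.45 on the log2 scale. Cpe was thus slightly higher in both LKB1-SCKO pools, by 0.49 (SE 0.131), or 1.40-fold. The mutant pools were nearly equal (SD 0.00653, n = 2). Carboxypeptidase E acts on most neuropeptide precursors and is also secreted as a neurotrophic factor by cells without classical granules.

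**Figure D2:**
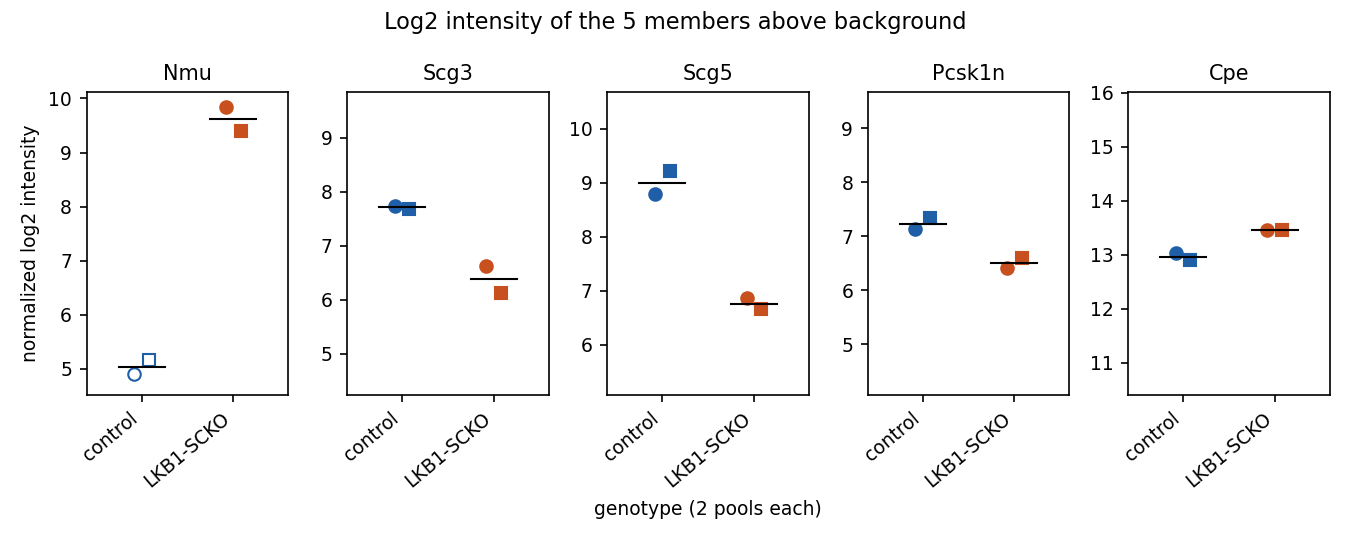
Normalized log2 intensity (vertical axis, each panel spanning the same number of log2 units) of the 5 members above background, by genotype, with 2 pools per genotype as points, the genotype mean as a line and open symbols for pools with a detection p-value of at least 0.05. The control and LKB1-SCKO pools of each gene do not overlap, with Nmu and Cpe higher and Scg3, Scg5 and Pcsk1n lower in LKB1-SCKO.

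Seen together, the genes of the set did not share a direction. The differences on the log2 scale ran from at least 4.43 for Nmu through 0.49 for Cpe and -0.73 for Pcsk1n to -1.33 for Scg3 and -2.24 for Scg5. Among the 10858 genes tested, Cpe had rank 1008 from the highest difference, while from the lowest Pcsk1n had rank 405, Scg3 rank 64 and Scg5 rank 11. For all 5 the control and mutant pools were disjoint, which was true of 55.1% of all genes. This count belongs to the contrast that the set was chosen on and nothing is read from it, and 4 of the 9 genes with a probe never entered the fit because no probe of theirs passed the detection filter.

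The direction of all 5 members was the same in each of 15 other settings, which is no independent support since the set was chosen on this contrast, while the size depended on the background correction. The difference of Scg5 was -1.43 without background correction and -2.41 with the authors' processed values. Scg3 stood at -0.67 and -1.50 in these settings, and Pcsk1n at -0.35 and -0.83. Cpe, whose signal lies far above the background, stayed between 0.39 and 0.56 in all 15. For Nmu the fitted values ran from 2.53 without background correction to 5.41 with the authors' values, but they are taken against control signals not above background and are no measured size. Leaving out 1 pool at a time gave -2.45 to -2.03 for Scg5 and -1.58 to -1.08 for Scg3.

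**Figure D3:**
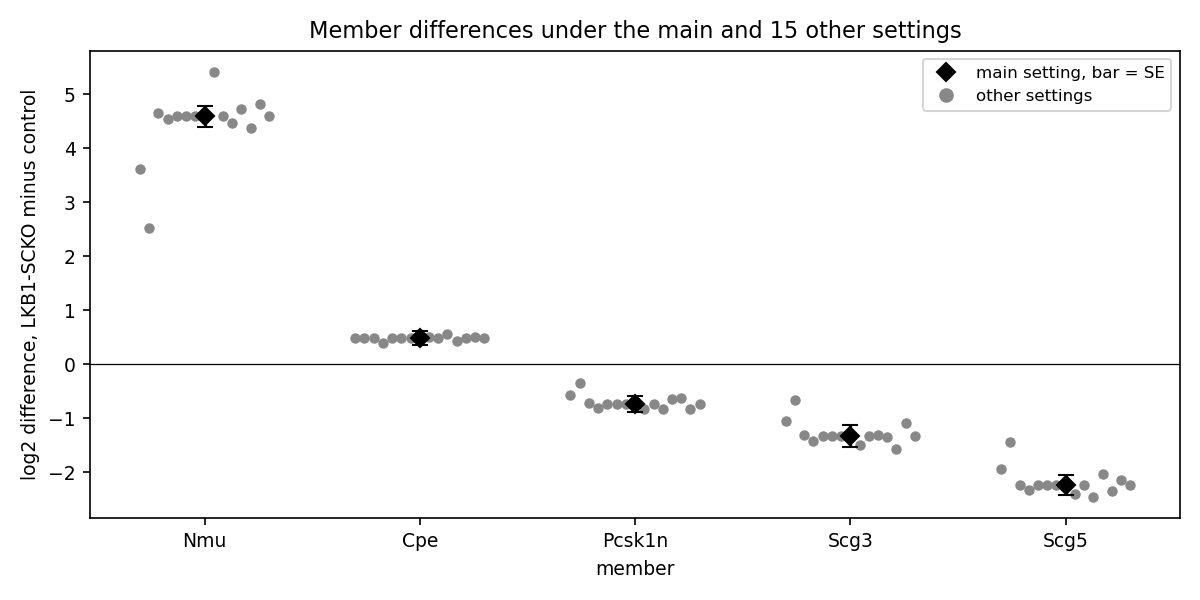
Log2 difference, LKB1-SCKO minus control, of the 5 members above background, where the diamond is the main setting with its standard error and each gray point 1 of 15 other settings (normalization, background, filter, probe choice or 1 pool left out). No point crosses 0, and the points of Nmu, from 2.53 to 5.41, are fitted values against control signals not above background and no measured size.

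The sequences before the genes were compared because cyclic AMP signalling through CREB is a textbook activator of granin genes, and LKB1 acts on it through the salt-inducible kinases that restrain the CRTC coactivators of CREB. RefSeq promoter windows (GRCm38.p6, from 250 bases before the start of transcription to 50 after it) were found for 8 of the 10 genes, not for Vgf and Cpe. They were searched on both strands for the full cAMP response element TGACGTCA, for its core TGACG, which is also part of the full element, for the AP-1 motif TGANTCA, for the E-box CACGTG and for RE1, the site of the neuronal gene repressor REST. The windows of Nmu, which was higher in LKB1-SCKO, and of Scg5, Scg3 and Pcsk1n, which were lower, are shown first because these 4 genes carry the differences, 5′ to 3′ and with each match in capitals:
Nmu (chr5:76363728-76364027, strand -): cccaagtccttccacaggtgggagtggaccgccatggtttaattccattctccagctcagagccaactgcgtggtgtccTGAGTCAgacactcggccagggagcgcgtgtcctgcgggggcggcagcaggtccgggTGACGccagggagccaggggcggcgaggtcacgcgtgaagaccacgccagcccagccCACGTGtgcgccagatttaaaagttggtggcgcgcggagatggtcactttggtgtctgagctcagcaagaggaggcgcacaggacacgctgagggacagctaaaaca
Scg5 (chr2:113829042-113829341, strand -): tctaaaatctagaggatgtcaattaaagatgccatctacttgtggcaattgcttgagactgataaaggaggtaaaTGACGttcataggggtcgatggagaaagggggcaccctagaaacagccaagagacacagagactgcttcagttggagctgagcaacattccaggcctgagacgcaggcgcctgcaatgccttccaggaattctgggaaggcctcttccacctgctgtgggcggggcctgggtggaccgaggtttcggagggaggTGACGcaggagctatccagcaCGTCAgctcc
Scg3 (chr9:75684007-75684306, strand -): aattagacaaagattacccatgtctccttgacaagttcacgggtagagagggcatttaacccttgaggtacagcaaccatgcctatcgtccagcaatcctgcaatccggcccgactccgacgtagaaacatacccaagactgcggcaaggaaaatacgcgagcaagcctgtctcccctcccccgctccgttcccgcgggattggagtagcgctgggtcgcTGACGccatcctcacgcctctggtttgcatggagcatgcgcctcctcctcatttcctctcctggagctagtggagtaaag
Pcsk1n (chrX:7919572-7919871, strand +): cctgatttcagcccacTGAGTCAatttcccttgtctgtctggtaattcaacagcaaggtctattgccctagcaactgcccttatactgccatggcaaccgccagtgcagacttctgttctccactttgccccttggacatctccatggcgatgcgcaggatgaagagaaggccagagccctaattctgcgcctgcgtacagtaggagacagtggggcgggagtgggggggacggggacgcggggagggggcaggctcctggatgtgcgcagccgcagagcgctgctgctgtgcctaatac

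None of these 4 windows held the full element. That of Nmu held the core at position -114 from the start, an AP-1 motif at -171 and an E-box at -57, on the coding strand. The Scg5 window held the core at -175 and 20, and at 41 on the other strand, the Scg3 window at -30, and the Pcsk1n window held an AP-1 motif at -234 without a core. The full element was present in the windows of Chgb and Scg2, 2 genes at background in this nerve, and the stretch around it is shown for them, again with the match in capitals:
Chgb (chr2:132781554-132781593, strand +): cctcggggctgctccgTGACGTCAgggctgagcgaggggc
Scg2 (chr1:79440071-79440110, strand -): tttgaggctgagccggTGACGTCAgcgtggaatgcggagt

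The element began at -72 in Chgb and at -68 in Scg2. Over the 32851 RefSeq promoter windows of the same length, 1.79% held the full element, 20.8% the core, 7.81% the AP-1 motif and 7.15% the E-box. The core was in 7 of the 8 members' windows and the AP-1 motif in 2. RE1 matched in no member and in 0.0639% of all windows. A match describes these letters in this window and shows no binding. Members with the core were found among those higher in LKB1-SCKO (Nmu), lower (Scg5, Scg3) and at background (Chga, Chgb, Scg2).

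The genes whose values across the 4 pools were most like those of Nmu and Scg5 were found by Euclidean distance between log2 values centred on each gene's mean, over 4 arrays and all genes tested outside the set. For Nmu these were the unnamed transcript E330034G19Rik (distance 0.375), Piwil4, a Piwi protein gene (0.378), and Nr1h4, the bile acid receptor gene (0.610). All 3 were undetected in both control pools and detected in both LKB1-SCKO pools, as Nmu was. For Scg5 they were Erc2, a gene of the presynaptic active zone (0.229), the long noncoding RNA gene Dubr (0.234) and Dlk1, which encodes a membrane protein related to Notch ligands (0.340). Erc2 stood at 6.93 and 7.11 in controls and 4.70 and 4.67 in LKB1-SCKO. Its LKB1-SCKO values lay below the lowest detected values of those arrays (5.16 and 5.27), whereas Scg5 was detected in every pool. Dlk1 stood at 8.54 and 9.27 in controls and 7.09 and 6.68 in LKB1-SCKO, and the difference of Dubr was -2.05. With 2 pools per genotype, this distance mostly weighs how large the genotype difference is.

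Other genes of peptide and granule biology were taken from 6 lists of precursors, receptors, enzymes, granule and exocytosis genes and regulators. The 6 lists held 210 genes, of which 105 were above background in both pools of a genotype and tested. Of these, 5 rose and 1 fell in LKB1-SCKO (limma, adjusted over all genes), which is 4.76% and 0.952% of the 105 beside 2.46% and 1.34% of all genes. In either direction it is 5.71% beside 3.79%. Their median log2 difference was -0.038, and that of all genes 0.012. An unadjusted p under 0.05 in limma was reached by 30 of the 105. Counts at this unadjusted cut are given below without the share of all genes, so no excess is read from them. The 6 calls became 1 without control 2 and 10 without LKB1-SCKO 2.

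Among the neuropeptide precursors, most genes did not pass the detection filter: 12 of 42 with a probe were tested, 1 rose, none fell and 11 did not pass, with a median of 0.0045. Npb, which encodes neuropeptide B, rose from 7.05 and 6.91 in controls to 8.60 and 8.35 in LKB1-SCKO (log2 difference 1.49, SE 0.152, adjusted p = 0.0129), a 2.81-fold change with no overlap of the pools. Its call was lost without control 2 (adjusted p = 0.0749). Without background correction its difference was 0.92.

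Of the neuropeptide receptors and their subunits, 12 of 40 with a probe were tested, 2 rose and 10 did not pass, with a median of -0.17 (-0.16 if genes undetected in 1 genotype are set to their bound). Ednrb, the endothelin B receptor gene, expressed by Schwann cells and by cells of the melanocyte lineage, rose 4.97-fold, from 10.04 and 9.86 to 12.34 and 12.17 (adjusted p = 0.00386, and at most 0.0205 in the other settings). Its second detected probe gave 1.99 on the log2 scale beside 2.31 for the brightest, while a further probe was detected in 1 LKB1-SCKO pool alone. Melanocyte markers were higher in both LKB1-SCKO pools too, with their values given among the cell markers, and their part in the rise of Ednrb was not tested. Ramp3, which modifies calcitonin family receptors so that they bind adrenomedullin, rose 3.24-fold, from 5.39 and 5.20 to 6.81 and 7.18 (adjusted p = 0.0141). The size of this rise is uncertain, since the unprocessed control signals of Ramp3 (166 and 164) were close to the background, with detection p-values of 0.0246 and 0.0385. On the unprocessed scale the ratio was 1.56-fold. The other kept Ramp3 probe stood at 0.77, and a further one was detected on no array. Ramp3 missed the threshold with the mean over probes (adjusted p = 0.0693) or without control 2 (adjusted p = 0.0694), and its difference was 0.62 without background correction.

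The prohormone processing enzymes had 17 tested genes of 22 with a probe, of which 1 fell, none rose and 16 did not pass, with a median of -0.050. The gene that fell was Mme, which encodes neprilysin, an enzyme that degrades peptides at the cell surface and does not mature them in granules. It went from 10.47 and 10.32 in controls to 9.36 and 9.32 in LKB1-SCKO (log2 difference -1.06, SE 0.133, adjusted p = 0.0246), with a second detected probe at -0.76. Mme missed the threshold without control 1 (adjusted p = 0.101), without control 2 (adjusted p = 0.0951), without LKB1-SCKO 1 (adjusted p = 0.0614) and with a replicate block (adjusted p = 0.0742).

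In the machinery of regulated exocytosis, 28 of 42 genes with a probe were tested, 2 rose, none fell and 26 did not pass, and the median was -0.016. Syt4, a synaptotagmin found on dense-core granules, rose 2.52-fold, from 11.03 and 10.73 to 12.27 and 12.16 (adjusted p = 0.0198). A second Syt4 probe was detected on no array. Syt5, another synaptotagmin of granules, stood at 5.27 and 5.12 in controls, where 1 of 2 pools detected it, and at 6.32 and 6.17 in LKB1-SCKO (log2 difference 1.05, SE 0.140, adjusted p = 0.0273). It passed the detection filter through the LKB1-SCKO pools, and its difference rests in part on a control signal that was not above background. Syt4 missed the threshold without control 2 or LKB1-SCKO 1 (adjusted p = 0.0892 and 0.0566). Syt5 missed it without control 1 (adjusted p = 0.0814), without control 2 (adjusted p = 0.140), without LKB1-SCKO 1 (adjusted p = 0.0731), without background correction, where its difference was 0.32 (adjusted p = 0.0905), and with a replicate block (adjusted p = 0.0714).

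Granule formation and cargo sorting had 0 of 19 tested genes called by limma, and 2 whose unadjusted p was under 0.05, with a median of -0.13. Its brightest genes were Rab2a, a small GTPase of granule biogenesis, at -0.46 (adjusted p = 0.142), and Atp6ap1, a proton pump subunit, at 0.14 (adjusted p = 0.613). The regulators around CREB, its CRTC coactivators and REST had 0 of 17 past the threshold (5 unadjusted), with a median of 0.065. Of these 17 genes, 11 stood above 0 and 6 below. The largest differences were those of Pde4b (1.51, adjusted p = 0.0761) and Fos (1.39, adjusted p = 0.101). The most negative was that of Crtc3 (-0.78, adjusted p = 0.119). The absence of calls depended on the setting. With an offset of 50 Pde4b passed the threshold, and without background correction Pde4b and Nr4a2 did. Which regulators passed also changed when 1 pool was left out. Among the brightest of this list, Dusp1, a phosphatase of MAP kinases, stood at -0.73 with overlapping pools. The clock gene Per1 stood at -0.75, and neither passed (adjusted p = 0.327 and 0.282). A second detected Per1 probe gave -0.46, with overlapping pools. Leaving out 1 pool moved Dusp1 between -1.28 (without LKB1-SCKO 1) and -0.19 (without LKB1-SCKO 2), and Per1 between -1.23 (without control 1) and -0.27 (without control 2).

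**Figure D4:**
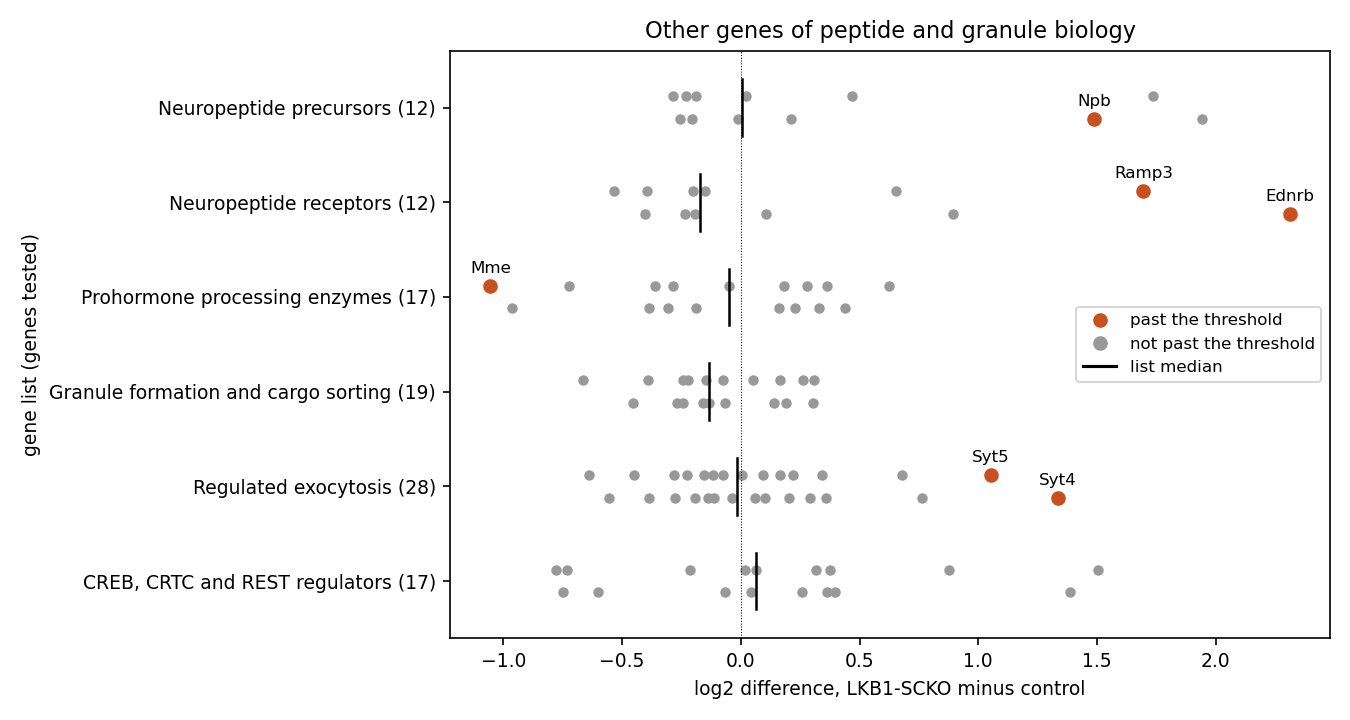
Log2 difference, LKB1-SCKO minus control (horizontal axis), of the 105 tested genes in 6 lists of peptide and granule biology, 1 point per gene, orange where the gene passed the threshold in limma, with the list median as a vertical line and the number tested in parentheses. The list medians lie between -0.17 and 0.065, and the 6 named genes are those that passed.

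Markers of cells that carry granules differed in their presence. Of 9 sympathetic and chromaffin markers with a probe, 8 did not pass the detection filter, among them Th and Dbh, the enzymes that define noradrenergic cells, and the remaining one, Slc6a2, stood at -0.78 (adjusted p = 0.0573). Of 14 neuron markers with a probe 8 were tested, with mean log2 values of 8.21 and 8.39 in controls and 8.19 and 8.16 in LKB1-SCKO. Snap25, Nefl and Tubb3 did not pass the filter, 3 of the 8 tested were above 0, and 5 had an unadjusted p under 0.05. That cut was also passed by 30 of the 105 pathway genes. Sncg fell (-0.76, adjusted p = 0.0448), and Nefm (-0.61), Prph (-0.57), Gap43 (-0.41) and Stmn2 (-0.08) were below 0 without passing the threshold. Above 0 were Uchl1 (0.69, adjusted p = 0.0619), Syn1 (0.55, adjusted p = 0.123) and Rbfox3 (0.17). Mast cells, which store peptides and proteases in granules, had 9 of 10 markers tested and none past the threshold in limma (1 unadjusted), with means of 8.22 and 8.02 in controls and 8.56 and 8.38 in LKB1-SCKO.

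The Schwann cell markers were level between genotypes, at means of 13.47 and 13.53 in controls and 13.51 and 13.48 in LKB1-SCKO, with 0 of 7 past the threshold (1 unadjusted). Lists that stood higher in both LKB1-SCKO pools, as Nmu did, were the melanocyte markers (means 5.46 and 5.03 against 8.35 and 8.48, 3 of 4 tested past the threshold, with Tyr, Mlana and Slc45a2 not passing the detection filter), the mast cell markers with the means above, the macrophage markers (8.67 and 9.19 against 9.74 and 9.36, 4 of 14), the red blood cell markers (11.36 and 10.73 against 12.05 and 13.18, 0 of 5, 4 unadjusted) and the lymphocyte markers (5.96 and 5.91 against 6.38 and 6.64, 0 of 4 tested, 2 unadjusted, with Cd3d, Cd3g, Cd4 and Cd8a not passing the filter). Of all genes tested, 2.46% were called higher. The macrophage markers did not share a direction: 10 of the 14 stood above 0 and 4 below, among the latter Cd163 (-1.25) and Mrc1 (-0.48). The lymphocyte median was 0.55, or 0.37 with genes undetected in 1 genotype set to their bound. The melanocyte mean in control 2 (5.03) lay below the lowest detected log2 value of that array (5.17). The detection filter admits genes undetected in controls through the LKB1-SCKO pools alone. The rise of both lists thus rests in part on control signals not above background. Skeletal muscle markers were low in LKB1-SCKO 1 alone (9.37, against 11.18 to 11.54 in the other pools). Fibroblast, perineurium and endothelium lists had no gene past the threshold in limma (2, 2 and 1 unadjusted), with pool means of 10.56 to 10.92, 9.98 to 10.24 and 9.22 to 9.68. The part of any of these cell types in the values of Nmu, Scg3, Scg5, Pcsk1n or Cpe was not tested.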

How the data were processed

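The non-normalized signal intensity and detection p-value of 45281 probes were deposited for 4 arrays, per the file headers; the other deposited table gives intensity as processed by the authors (linear scale, same distribution on all arrays, minimum -53.1). The submitters' processing notes name GenomeStudio (2010) without the steps. Unprocessed intensities were background-corrected by normexp in limma 3.58.1 under R 4.3.3, using detection p-values and an offset of 16, quantile-normalized and log2-transformed. The 19732 probes that both pools of 1 genotype or the other detected were kept (detection p-value under 0.05), and the brightest probe stood for each of 10858 genes. Platform symbols were updated by gene identifier from RefSeq (GRCm38.p6), where 34807 of 34885 probes with 1 symbol matched (18 probes had several and 10378 none). Genotypes were compared with lmFit and eBayes (genotype only, two-sided, Benjamini-Hochberg over all genes at 0.05), and the fit was tested on simulated data. The number of arrays limits the precision. A lower bound compares the brighter genotype's mean with the dimmer arrays' mean floor, which is the lowest signal of any detected probe, or that of the probe itself where higher.

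Named were Stk11, the members, up to 4 passing genes per list by size (otherwise the 2 brightest), Nmur1, Nmur2 and the 3 nearest profiles of Nmu and Scg5. In the regulator list Pde4b, Fos, Crtc3 and Nr4a2 were named beyond this rule, after their values were seen. Marker lists are given by counts and means, and single markers named in the text were chosen after their values were seen. Members, lists and motifs were chosen with earlier results of these data, or the sequences, known. Alternatives were other offsets, no background correction, cyclic loess, median scaling, other filters, probe means, single probes, the authors' values, array weights, each pool left out and a replicate block.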

Additional observations from a re-analysis of the deposited data

How the results depend on the processing

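The 412 genes called over all genes became 636 without background correction, 172 with the replicate number as a block, and 112 to 483 when 1 pool was left out (112 without control 2, 182 without control 1, 225 without LKB1-SCKO 1). The 6 pathway genes called became 1 to 10 when 1 pool was left out, with 1 (Ednrb) without control 2 and 10 without LKB1-SCKO 2; with the replicate block there were 4. Labels do not say that a replicate number marks a shared batch, and deviations of same-numbered pools correlated at -0.17 over genes, so no pairing was used. The Stk11 difference was -0.80 in the main setting and missed the threshold at -0.80 without the detection filter (adjusted p = 0.0582), with probes tested singly (adjusted p = 0.060) and with the replicate block (adjusted p = 0.109), at -0.82 with the authors' processed values (adjusted p = 0.0626), and at -0.86 to -0.73 without 1 pool. The cause was not tested. The differences of the 5 members, of Stk11 and of the pathway genes named by rule kept their sign in all 15 settings. Those of Pde4b, Fos, Crtc3 and Nr4a2 were not followed across the settings. Signals close to background, as for Nmu in controls, Scg3 and Pcsk1n, limit how well the size of a difference is known.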
